A study of Mus musculus with 13 samples.

Results

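FOXL2 binding was mapped by chromatin immunoprecipitation and sequencing (ChIP-seq) in 4 libraries, 2 from vehicle-treated and 2 from activin-treated cells, out of 13 samples in the series. These 4 are the libraries immunoprecipitated with an anti-FLAG antibody. Their peak lists were joined wherever peaks shared at least 1 bp, which gave 124781 FOXL2 regions. Regions with a peak in both activin lists and in neither vehicle list are termed activin-only, the reverse vehicle-only, and those with a peak in all 4 lists shared. The cells were LβT2, an established mouse pituitary line of the gonadotrope type, stably carrying a lentiviral cassette for FLAG-tagged mouse FOXL2 under doxycycline control together with constitutive GFP. Both groups carried this cassette, so the protein mapped is induced, tagged FOXL2 and not the cells' own. Both groups recovered for 24 h after seeding, received doxycycline for 48 h, and then equilibrated for 2 h in 2% fetal bovine serum. Vehicle or 1 nM activin A was then added for 1 h before fixation in 1% formaldehyde. Each library came from 3 pooled plates, and the labels do not say whether duplicates were grown on separate days, so p-values measure only the spread between these libraries.

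FOXL2 is a forkhead transcription factor of the ovary, the eyelid and the pituitary gonadotrope, the cell that secretes follicle-stimulating hormone and luteinizing hormone. Activin, a ligand of the TGF-beta family, signals through serine/threonine kinase receptors that phosphorylate SMAD2 and SMAD3. These SMADs enter the nucleus with SMAD4, bind DNA weakly and rely on partner factors such as FOXL2, with which they drive Fshb, the gene of the FSH beta subunit.

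FOXL2 peaks in promoter windows give examples of the outcomes seen after activin. The 7 windows below each held a FOXL2 summit and were chosen after their values had been seen. They are RefSeq promoters of GRCm38.p6, running from 250 bases before to 50 bases after the gene's start, 5′ to 3′ on the gene's strand. Capitals mark the short forkhead core TGTTTA or its reverse complement. In the first 3 windows the FOXL2 region was present in all 4 libraries and ranked higher with activin, in the next 2 it was present in all 4 and ranked lower, and in the last 2 it was activin-only (Supt4a) or vehicle-only (Sycn).
Tmpo promoter, chr10:91170501-91170800, minus strand: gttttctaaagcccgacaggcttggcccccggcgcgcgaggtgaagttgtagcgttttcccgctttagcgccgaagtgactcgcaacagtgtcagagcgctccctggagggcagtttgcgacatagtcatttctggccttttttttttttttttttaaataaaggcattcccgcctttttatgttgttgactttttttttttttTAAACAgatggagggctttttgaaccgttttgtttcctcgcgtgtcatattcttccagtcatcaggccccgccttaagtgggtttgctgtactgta
Ubash3b promoter, chr9:41079457-41079756, minus strand: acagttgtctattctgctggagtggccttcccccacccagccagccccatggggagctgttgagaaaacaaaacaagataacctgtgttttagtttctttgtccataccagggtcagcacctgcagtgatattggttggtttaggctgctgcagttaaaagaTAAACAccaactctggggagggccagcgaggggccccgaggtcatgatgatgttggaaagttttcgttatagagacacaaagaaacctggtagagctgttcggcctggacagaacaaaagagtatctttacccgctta
Btbd3 promoter, chr2:138278243-138278542, plus strand: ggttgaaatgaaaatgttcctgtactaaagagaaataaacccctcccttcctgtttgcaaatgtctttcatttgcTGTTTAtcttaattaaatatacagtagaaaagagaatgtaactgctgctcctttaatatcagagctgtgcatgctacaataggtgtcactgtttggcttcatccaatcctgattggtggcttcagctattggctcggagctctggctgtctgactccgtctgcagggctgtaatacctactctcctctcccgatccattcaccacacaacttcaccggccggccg
Add3 promoter, chr19:53143747-53144046, plus strand: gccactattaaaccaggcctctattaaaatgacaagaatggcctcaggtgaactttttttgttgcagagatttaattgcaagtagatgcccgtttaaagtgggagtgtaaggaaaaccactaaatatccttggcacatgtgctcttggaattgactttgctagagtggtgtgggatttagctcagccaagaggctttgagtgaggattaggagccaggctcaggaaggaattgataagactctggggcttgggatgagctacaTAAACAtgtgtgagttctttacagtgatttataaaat
Gnrhr promoter, chr5:86197852-86198151, minus strand: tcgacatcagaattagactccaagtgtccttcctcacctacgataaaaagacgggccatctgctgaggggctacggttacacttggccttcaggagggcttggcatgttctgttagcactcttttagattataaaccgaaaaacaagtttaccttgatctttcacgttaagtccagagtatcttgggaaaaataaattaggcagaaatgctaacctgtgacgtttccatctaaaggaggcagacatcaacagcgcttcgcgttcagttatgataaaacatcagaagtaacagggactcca
Supt4a promoter, chr11:87737301-87737600, plus strand: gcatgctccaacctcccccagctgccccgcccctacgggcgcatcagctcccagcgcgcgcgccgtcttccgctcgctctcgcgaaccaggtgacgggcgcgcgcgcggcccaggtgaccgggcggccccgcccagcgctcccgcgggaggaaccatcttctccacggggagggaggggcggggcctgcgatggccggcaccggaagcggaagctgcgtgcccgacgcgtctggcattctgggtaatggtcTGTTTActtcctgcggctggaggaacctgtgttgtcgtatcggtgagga
Sycn promoter, chr7:28540635-28540934, plus strand: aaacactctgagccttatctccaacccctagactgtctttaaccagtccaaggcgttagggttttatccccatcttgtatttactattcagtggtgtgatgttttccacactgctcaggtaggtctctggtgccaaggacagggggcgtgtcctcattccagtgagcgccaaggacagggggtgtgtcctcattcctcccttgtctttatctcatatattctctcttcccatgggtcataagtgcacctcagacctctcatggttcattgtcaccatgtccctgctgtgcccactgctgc
In Tmpo, which encodes a lamin-binding protein of the nuclear envelope, the core lay 21.5 bp from the FOXL2 summit. Rank here and below is the percentile of a region's strongest peak by −log10 q among all shared regions, 100 being the strongest. At Tmpo it went from 21.7 and 25.2 in the vehicle libraries to 47.8 and 44.3 in the activin libraries. In Ubash3b, a phosphatase gene, the core lay 24.5 bp from the summit and rank went from 58.6 and 49.4 to 71.7 and 76.1. In Btbd3 the core lay 5.5 bp away and rank went from 63.2 and 56.3 to 73.4 and 74.9. In Add3, an adducin of the membrane skeleton, the only core was 111.5 bp from the summit, and rank went from 36.7 and 38.8 to 5.5 and 5.2. Groups that do not overlap are part of every ranked call and are no further result. Gnrhr, the receptor for gonadotropin-releasing hormone, and Sycn held no core in the window. In Supt4a, which encodes a transcription elongation factor, the core was 3.5 bp from the summit of a peak at percentiles 36.5 and 63.2 of the activin lists. These 7 windows do not show how often a near core goes with each kind. A core within 50 bp of the summit was present at 8 of 15 ranked higher and 9 of 30 ranked lower promoter sites. It was present at 7 of 40 activin-only and 2 of 49 vehicle-only ones.

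The vehicle libraries held 86401 and 83834 FOXL2 peaks in replicates 1 and 2, and the activin libraries 97701 and 94006. The mean difference was 0.17 on the log2 scale (exact permutation test over the 6 labellings, two-sided p = 0.333, the smallest that 2 libraries against 2 can give). The deposited lists carry no read totals, so depth per library is unknown and a longer list cannot be told apart from a deeper library. Vehicle replicate 2 stood apart from the others. It was the only library without a peak at 7276 regions, against 2835 to 3180 for each of the others. Of the regions found in that library alone, 10.9% lay at promoters and 28.1% in acetylated chromatin. The matching shares were 3.98% and 15.4% for vehicle replicate 1, 2.84% and 7.03% for activin replicate 1, and 8.25% and 15.8% for activin replicate 2. The cell type was checked on acetylation. H3K27ac, the acetylation of histone H3 that marks active promoters and enhancers, had a peak within 2500 bp of the start of 5 of the 6 gonadotrope markers whose start is in the promoter table, in all 4 of its libraries (Cga, Lhb, Gnrhr, Gata2 and Foxl2). It had none at Fshb, at the 3 such markers of somatotropes, lactotropes and thyrotropes, at 3 of 4 corticotrope and melanotrope markers, or at the 2 stem cell markers.

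Most strong FOXL2 binding was present with and without activin. All 4 libraries held a peak at 58444 regions, 46.8% of the total. Activin-only regions numbered 11173, which is 8.95% of all regions, and vehicle-only regions 4021, which is 3.22%. The balance depended on list length: with every list cut to the 83834 strongest peaks of the shortest list, there were 7890 activin-only and 5884 vehicle-only regions. Gained regions reached further up their lists than lost ones. A mean position above the middle of the 2 lists, by the authors' −log10 q, was reached by 2004 activin-only regions (17.9%) and by 165 vehicle-only regions (4.10%). The highest mean percentile was 96.8 for an activin-only and 71.9 for a vehicle-only region. These positions come from the full lists, of which the activin ones were longer, and were not recomputed with lists of equal length.

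The strongest gained sites lay within introns or between genes. The highest of all, nearest to the predicted gene Gm10308, stood at percentiles 97.2 and 96.3 of the activin lists, in chromatin that was acetylated with either treatment. An activin-only region in the first intron of Get4, a gene of tail-anchored protein insertion, at chr5:139256564-139256999 (GRCm38) stood at percentiles 88.6 and 91.6 of the activin lists and overlapped H3K27ac in both treatments and SMAD2/3 in both activin libraries. A region 8.05 kb upstream of Abhd2, a lipid hydrolase gene, stood at 91.7 and 89.4 in the activin lists and had H3K27ac in both activin but not in both vehicle libraries. A region in the first intron of Akap8l, a nuclear anchoring protein gene, stood at 87.5 and 91.9. An activin-only region 13.2 kb upstream of Esr2, the gene of estrogen receptor beta, stood at 85.0 and 89.9, and lay in an H3K27ac region found in the activin libraries only. It was among 63 of the 11173 activin-only FOXL2 regions that lay in H3K27ac and SMAD2/3 regions which were themselves activin-only. The matching share over all FOXL2 regions was not counted. For activin-only H3K27ac alone, the overlap was 2.09% of activin-only FOXL2 regions and 1.42% of all FOXL2 regions. At promoters, the activin-only region of highest rank belonged to Mfsd1, a lysosomal transporter gene (percentiles 82.4 and 81.2), followed by Gm15401 (72.6 and 69.0). The strongest vehicle-only region in the genome was the Sycn promoter, whose gene encodes the pancreatic granule protein syncollin, at percentiles 70.5 and 73.3 of the vehicle lists. Among other vehicle-only promoter regions within 1 kb of a start, those of Fut10, a fucosyltransferase gene (50.6 and 58.9), and of Serpinc1, the antithrombin gene (51.4 and 48.6), stood lower.

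Regions near gene starts were gained less often than distant ones. Of 5781 regions classed as promoter, 5.78% (Wilson 95% interval 5.20 to 6.41) were activin-only, against 9.90% (9.63 to 10.2) of 45105 intergenic regions. Vehicle-only shares were 2.85% and 3.23%. Shares rose with distance: 5.89% of regions within 1 kb of a start were activin-only and 10.4% of those over 100 kb away. Only 36.8% of promoter regions were shared, against 49.6% of intronic ones. These shares by class and distance were not recomputed without vehicle replicate 2, the list with the largest promoter share (5.04%). Wilson intervals here and later cover counting error over regions only, which are not replicates. Over libraries, promoter peaks made up 4.41% ± 0.892 of vehicle lists and 4% ± 0.559 of activin lists (SD, n = 2, exact permutation p = 0.667), and the difference changed from −0.407 to 0.223 percentage points without vehicle replicate 2. Intergenic peaks made up 34.3% ± 0.891 and 35.7% ± 0.764 (exact permutation p = 0.333).

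The shared regions are the same 58444 in every list, so each could be placed by rank. Ranks sum to the same total in every library, so they show redistribution and never a change in total binding. A region was called ranked higher when the lower activin rank lay at least 10 points above the higher vehicle rank, and ranked lower in the reverse case. Ranked higher regions numbered 7130 (12.2%) and ranked lower regions 7169 (12.3%). For comparison, the median difference in rank was 8.51 points between the vehicle replicates and 5.78 between the activin replicates, and 10.2 to 13.6 between treatments. Just outside the threshold, 516 regions missed the higher call and 779 the lower call by under 1 point.

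The near-equal totals hid unequal tails. Without overlap but with no minimum gap, more regions ranked lower (19340, 33.1%) than higher (15251, 26.1%). From a gap of 11 points on the order turned, with 6676 higher and 6449 lower, and at 20 points there were 3591 higher (6.14%) and 2339 lower (4%). At 30 points there were 1750 higher (2.99%) and 582 lower (0.996%), at 40 points 780 (1.33%) and 111 (0.19%), and at 50 points 276 higher (0.472%) and 11 lower (0.0188%). The excess of large rises held in each of the 13 other settings tried, with ratios of higher to lower at 30 points from 1.33 to 3.75. At that gap, there were 4619 higher and 2301 lower regions without vehicle replicate 1, and 3197 and 1468 without vehicle replicate 2. Without activin replicate 1 there were 2242 and 1457, and without activin replicate 2 there were 2500 and 1451.

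**Figure D1:**
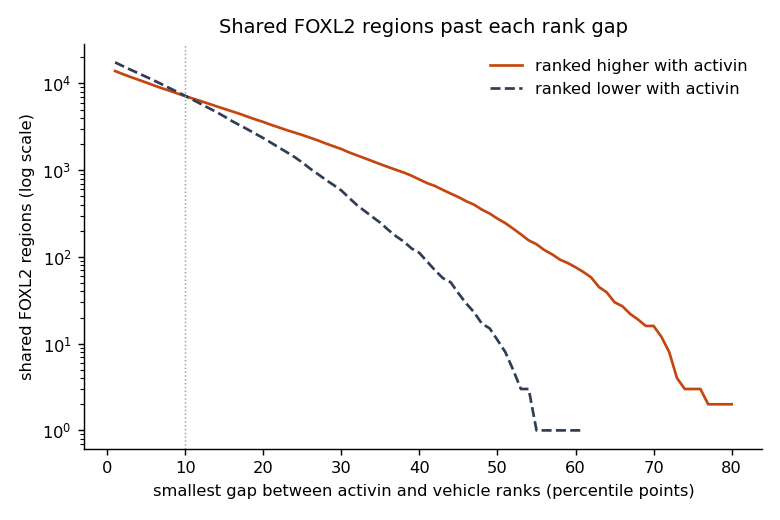
Number of shared FOXL2 regions (y axis, log scale) whose activin and vehicle ranks were separated by at least the gap on the x axis, in percentile points; the dotted line marks the 10-point threshold. The curves cross between 10 and 11 points, and beyond that more regions ranked higher (276 at 50 points) than lower (11).

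The largest rises took FOXL2 regions from near the bottom of the shared set to near the top. The region in intron 2 of Tsc22d2, a leucine-zipper gene of the TSC22 family, at chr3:58431795-58432542 ranked at 0.2 and 3.4 in the vehicle libraries and at 88.4 and 86.7 in the activin libraries. Fold enrichment over control, as the authors give it, was 2.65 and 3.08 with vehicle, against 22.1 and 22.2 after activin. The groups were far apart, and H3K27ac was found there in both activin libraries but not in both vehicle libraries. A region 37.2 kb upstream of Dync1i2, a dynein chain gene, moved from 7.5 and 8.9 to 81.7 and 87.8, with SMAD2/3 in both activin libraries. The first intron of C1d, a cofactor of the RNA exosome, moved from 5.5 and 13.0 to 85.4 and 88.1. Rbbp6, Ms4a14, Tmx1 and Synb, also among the largest rises, had gaps of 67.9 to 73.4 points.

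The largest falls started from the upper middle of the vehicle lists. A region at a transcript end annotated to Hiat1, a transporter-like gene, ranked at 59.4 and 58.3 with vehicle and at 3.7 and 2.6 with activin. In the first intron of Tmem161b the ranks went from 66.3 and 64.2 to 11.1 and 11.5. An intronic region 56.3 kb past the start of Sp4, a zinc-finger factor of the SP family, ranked at 73.0 and 76.2 and then at 21.4 and 20.0, and had H3K27ac in both vehicle but not in both activin libraries. A region 5.15 kb upstream of Serpina6, the gene of corticosteroid-binding globulin, ranked at 61.3 and 74.1 and then at 12.8 and 13.3. Gm10471 and Gm21698, also among the 8 largest falls, belong to a family of near-identical genes on chromosome 5 where reads may be placed on the wrong copy.

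**Figure D2:**
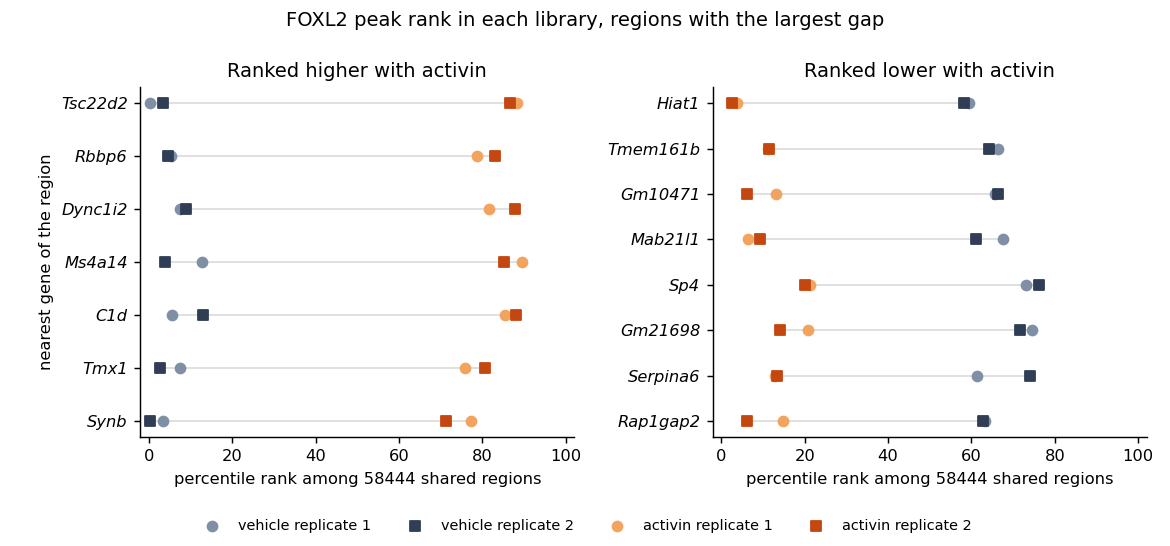
Percentile rank (x axis) of the strongest FOXL2 peak in each library at 7 of the 8 regions with the largest rise (left) and the 8 with the largest fall (right), 1 per nearest gene; each point is 1 library. The regions were chosen for their gap, which is widest at Tsc22d2; the vehicle ranks are at most 13 for the rises and at least 58.3 for the falls.

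Promoter-class regions also moved in both directions, each less often than shared regions as a whole. Of 2129 shared ones, 203 (9.53%) ranked higher and 190 (8.92%) lower, against 12.2% and 12.3% over all shared regions. At the promoter of Ccni, cyclin I, FOXL2 moved from 1.2 and 2.6 to 57.5 and 55.9. At that of Capn5, a calpain protease gene, ranks were 6.2 and 18.9, then 68.3 and 69.9. At Phip, which encodes a WD-repeat and bromodomain protein, a promoter region 26.1 kb upstream of the nearest listed start moved from 1.4 and 1.5 to 62.3 and 67.3. Among falls, a promoter region annotated to Idh1, isocitrate dehydrogenase 1, 10.7 kb past its nearest listed start, went from 73.0 and 70.8 to 25.4 and 14.1. A promoter region annotated to Acss2, acetyl-CoA synthetase 2, went from 60.1 and 68.4 to 23.1 and 16.9.

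Some genes collected several gained FOXL2 regions. Among 12777 protein-coding genes nearest to a region, 242 (1.89%) had 3 or more activin-only and no vehicle-only region, and 18 (0.141%) had the reverse. These counts were 112 and 52 when lists were cut to equal length. Dlgap1, a postsynaptic scaffold gene, Gmds, an enzyme gene of GDP-fucose synthesis, and Cobl, an actin nucleator, had 8 activin-only regions each, of 82, 47 and 39 regions. At Dlgap1 the share is near the 8.95% over all regions, and 5 of its shared regions ranked higher and 8 lower. Tbc1d5, a Rab GTPase regulator, had 7 activin-only of 49 regions, with 7 shared regions higher and 1 lower. On the losing side, where the share over all regions was 3.22%, Btbd3 and Plcl2, a phospholipase C-like gene, had 5 vehicle-only regions each. These were of 36 and 28 regions. At Btbd3, 4 shared regions still ranked higher, the promoter shown above among them, with 2 lower. Msra, methionine sulfoxide reductase A, had 4 vehicle-only of 21 regions and 4 shared regions ranked lower, with none gained or higher. Pim1, a serine/threonine kinase gene, and Txn1, thioredoxin, had 4 vehicle-only regions each, of 10 and 7 regions. Long genes can hold more regions, and counts per gene were not scaled by length.

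Calls that lay close together tended to share a direction. Of 1410 pairs of neighbouring ranked calls under 5 kb apart, 70.1% (67.6 to 72.4) had the same direction, against 52.5% (51.1 to 53.9) of 4824 pairs at least 100 kb apart. For activin-only and vehicle-only regions the shares were 77.0% and 64.1%. Of 331 protein-coding genes with 4 or more ranked calls, 17 had only rises and 26 only falls. The genes with the most calls in each set, named after their counts were seen, were Sh3kbp1, an adaptor of receptor endocytosis (7 higher of 15 shared regions), and Phip (6 of 16), against Atp2b1, a plasma membrane calcium pump (6 lower of 9), and Pou2af1, a B-cell coactivator (6 of 6). Presence calls were 6 activin-only and no vehicle-only at Phip, 1 and 2 at Sh3kbp1, 1 and 2 at Atp2b1, and 1 and none at Pou2af1.

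At the gonadotrope's own hormone genes the strongest FOXL2 sites kept their place. The Cga promoter, which drives the common alpha subunit of the gonadotropins, ranked at 99.8 and 99.3 with vehicle and at 99.9 and 100 with activin (chr4:34893229-34894662). The region 3.88 kb upstream of Cga ranked at 99.0 and 99.3, then 97.7 and 97.6. Only a weak intronic region 2.04 kb past the start moved up, from 1.0 and 1.0 to 19.1 and 21.2, and a weak region beside the promoter was vehicle-only (percentiles 18.5 and 19.6). The Gnrhr promoter region fell, from 71.4 and 80.9 to 52.1 and 55.3 (chr5:86197708-86198424), with 1 further Gnrhr region, in the intron, vehicle-only (16.8 and 41.6). An intronic Gnrhr region 5.99 kb past the start stayed at the top, at 99.6 and 99.2 and then 98.5 and 99.1. No FOXL2 region had Lhb, the luteinizing hormone beta subunit gene, as its nearest gene. The Fshb promoter held no FOXL2 peak. Upstream of Fshb, the region at −59.3 kb (chr2:107118661-107119209) rose from 64.7 and 75.4 to 92.9 and 96.3. Another at −62.6 kb was activin-only (percentiles 0.5 and 28.8). Neither had Fshb as its nearest gene. Of the 2 regions that did, 1 was shared and passed neither call, and none was activin-only or vehicle-only. The regions at −17.2 kb and −35.4 kb passed neither call.

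Genes of the activin pathway held FOXL2 sites that moved in both directions. The shares over all regions were 8.95% activin-only and 3.22% vehicle-only, and over all shared regions 12.2% ranked higher and 12.3% lower. The 15 genes of activin, TGF-beta and BMP receptors had 113 regions, of which 6.19% were activin-only and 1.77% vehicle-only. Of their 61 shared regions, 6 ranked higher (9.84%) and 5 lower (8.2%). Within Bmpr1b, a type I BMP receptor gene, an intronic region 24.2 kb past the start rose from 2.7 and 0.5 to 64.3 and 57.2, while one at 36.7 kb fell from 42.5 and 53.7 to 15.1 and 19.9. Acvr2a, the activin type II receptor gene, gained an intronic region (percentiles 51.4 and 37.6), and Bmpr2 gained 3. The 13 genes of activin, inhibin and follistatin had 27 regions, none of them activin-only, and 3 of 12 shared ones (25%) ranked lower. A region 12.5 kb upstream of Inhbc, the activin beta C subunit gene, inside an intron of a neighbouring gene, fell from 58.4 and 65.0 to 12 and 13.9. Among 6 SMAD genes, an intronic Smad4 region fell from 54.5 and 70.1 to 31.7 and 33.2. The 14 feedback inhibitors had 8 activin-only regions of 72 (11.1%) and 3 vehicle-only ones. Ldlrad4, which sequesters receptor SMADs, had 2 activin-only regions and 2 of 7 shared ones higher, and Smurf2, a ubiquitin ligase, 3 activin-only. Smad7, the inhibitory SMAD, had 1 activin-only and 2 vehicle-only regions and 1 lower.

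Some gene groups of cell identity and cell contact had rank calls mostly on one side, against 12.2% higher and 12.3% lower over all shared regions. For the 17 gonadotrope lineage factors, 4 of 73 shared regions ranked higher (5.48%) and 12 lower (16.4%). Of all 137 regions of these factors, 9 were activin-only (6.57%) and 5 vehicle-only (3.65%), against 8.95% and 3.22% over all regions. Otx1 and Nr0b1, the DAX-1 gene, each had 3 lower and none higher. The Nr0b1 region 4.43 kb upstream of the start, which overlapped H3K27ac and SMAD2/3, fell from 70.5 and 78.6 to 46.6 and 43.9. For 15 genes of other pituitary lineages the balance of rank calls was the reverse, with 11 of 46 higher (23.9%) and 4 lower (8.70%). Presence calls did not lean the same way: of 87 regions, 3 were activin-only (3.45%) and 2 vehicle-only (2.3%), both below the shares over all regions. A region 5.47 kb upstream of Neurod1, a corticotrope bHLH factor, rose from 28.4 and 35.3 to 72.3 and 72.4, and one 23.5 kb upstream of Prl, prolactin, from 17.1 and 16.7 to 59.7 and 68.5. No H3K27ac peak lay within 2500 bp of the Prl start in any library, and at Neurod1 3 of 4 had one. For 28 genes of collagens, laminins and integrins, 9 of 30 shared regions ranked higher (30%) and none lower, while of all 70 regions 8 were activin-only (11.4%) and 4 vehicle-only (5.71%). All 3 shared regions at Itga4, an integrin alpha chain gene, rose, as did 2 of 6 at Lama1, which also had 5 activin-only regions and 1 vehicle-only region, and 2 of 4 at Lama4. Itga4 is the neighbour of Neurod1 on chromosome 2, so both groups draw on the same stretch of the genome. These lists were chosen with earlier results of the series known and received no test of their own.

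Signalling and forkhead genes held sites that moved in both directions. Over all regions, 8.95% were activin-only and 3.22% vehicle-only, and over all shared regions 12.2% ranked higher and 12.3% lower. The 25 genes of the MAP kinase cascade had 15 activin-only regions of 122 (12.3%) and 4 vehicle-only ones (3.28%). Mapk10, the JNK3 gene, had 4 of 9 shared regions higher and none lower, one of which rose from 24.7 and 18.5 to 68.9 and 68.5. Spred1, an inhibitor of RAS signalling, had 3 activin-only regions, the strongest at percentiles 85.4 and 89.9 and acetylated in both activin but not both vehicle libraries. Dusp16, a phosphatase that acts on JNK, had 5 activin-only regions, the strongest at 71.7 and 74.9, and 2 vehicle-only ones. In the Hippo pathway 9 of 53 shared regions ranked higher (17%) and 11 lower (20.8%). Vgll4, a TEAD cofactor gene, had 2 higher and 4 lower of 12. Nf2, the merlin gene, had 4 of 7 shared regions higher and 1 lower, among them an intronic one that rose from 19.5 and 16.2 to 71.9 and 74.3. Axon guidance genes had 15 of 163 shared regions higher (9.20%) and 29 lower (17.8%), of which Unc5d, a netrin receptor gene, held 5 and 11. Of 30 forkhead genes, Foxp2 held the most regions, 83. Its promoter region fell from 54.5 and 59.8 to 16.5 and 20.6, while an intronic region 16.8 kb past the start rose from 54.6 and 33.1 to 95.4 and 94.4 and one 60.8 kb upstream from 40 and 11.3 to 87.9 and 86.1. In all, 9 of 47 shared Foxp2 regions ranked higher and 7 lower, and 6 regions were activin-only against 3 vehicle-only.

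**Figure D3:**
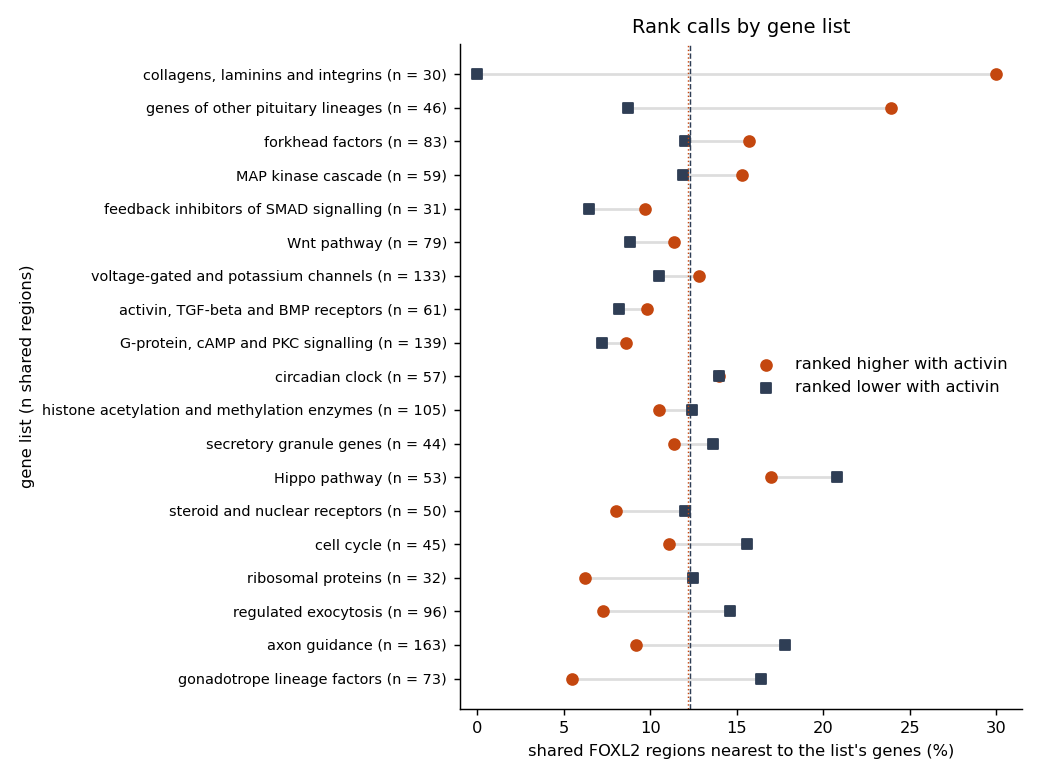
Share of the shared FOXL2 regions nearest to each list's genes that ranked higher (circles) or lower (squares) with activin, for the lists with at least 30 shared regions; the vertical lines mark the shares over all shared regions, 12.2% and 12.3%. Collagens, laminins and integrins had the highest share ranked higher (30%, with 0% lower) and gonadotrope lineage factors the lowest (5.48%, with 16.4% lower).

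The direction of the ranked FOXL2 calls went with readouts that the calls did not use. Ranked higher regions overlapped a SMAD2/3 region of both activin libraries in 11.4% (10.7 to 12.2) of cases, ranked lower regions in 3.15% (2.77 to 3.58), and uncalled shared regions in 5.80% (5.59 to 6.02). The share was greater at larger gaps, 15.4% at 30 points and 20.7% (16.3 to 25.8) at 50 points. Ranked lower regions stayed near 3% at 20 and 30 points (3.08% and 3.26%). With list position averaged over the vehicle and activin libraries, the higher and lower sets had similar medians, 61.6 and 61.9. By the call rule, activin ranks lay above vehicle ranks in the higher set and below them in the lower set. The sets were therefore not matched for peak strength in the activin libraries. What part that strength has in the difference in overlap was not tested. Most regions that rose had no SMAD2/3 region in both activin libraries, Ms4a14 and Synb among them. Activin-only FOXL2 regions overlapped such a SMAD2/3 region in 3.14% (2.83 to 3.48) of cases and vehicle-only ones in 1.02% (0.753 to 1.38). The activin-only share lay below the 6.16% of shared regions and the 3.63% of all regions.

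H3K27ac that was already present before activin was more frequent where FOXL2 fell. Regions acetylated in both vehicle libraries made up 13.9% (13.1 to 14.7) of ranked higher and 32.6% (31.5 to 33.7) of ranked lower regions, with 21.1% of uncalled ones between them. At a 30-point gap the shares were 14.5% and 45.9%. Activin-only regions were acetylated with vehicle in 9.07% of cases and vehicle-only regions in 26.7%. These shares were 11.9% and 20.1% without vehicle replicate 2, and 14.8% and 18.1% with vehicle replicate 1 against activin replicate 2. Acetylation itself shifted the same way as FOXL2. Ranked higher regions lay in H3K27ac of both activin libraries in 20.2% of cases and ranked lower regions in 25.2%. An H3K27ac region that was itself activin-only lay at 6.07% (5.54 to 6.65) of ranked higher and 0.139% (0.0758 to 0.257) of ranked lower regions. The shares for activin-only H3K27ac became 4.03% and 0.323% without vehicle replicate 1, 4.99% and 0.22% without vehicle replicate 2, and 4.57% and 0.222% without activin replicate 2. With peaks taken as summits widened by 50 bp it was 3.01% and 0.048%. The higher share exceeded the lower in all 13 settings, by 8.17 to 62.7 times. An H3K27ac region that was vehicle-only lay at 0.393% of ranked higher and 5.27% of ranked lower regions. The contrast in prior acetylation was smaller without vehicle replicate 2, at 14.6% and 24.8%. With vehicle replicate 1 against activin replicate 2 alone, whose single-library regions were acetylated to about the same share, it was 17.1% and 21.8%. What part the richer acetylated share of vehicle replicate 2 has in the wider contrast was not tested.

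**Figure D4:**
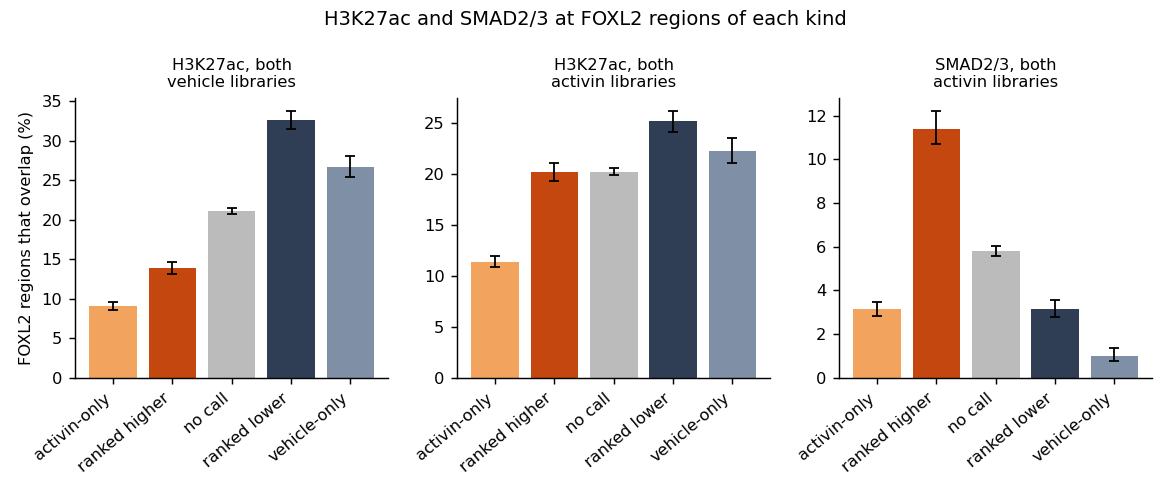
Percent of FOXL2 regions of each kind (x axis) that overlapped by at least 1 bp an H3K27ac region of both vehicle libraries (left), of both activin libraries (middle) or a SMAD2/3 region of both activin libraries (right); bars are shares and whiskers Wilson 95% intervals over regions. Prior acetylation was highest at ranked lower regions (32.6%) and SMAD2/3 overlap at ranked higher regions (11.4%).

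Peaks were wider where they ranked higher. At the 54136 shared regions with 1 peak in each library, median width was 363 and 355 bp with vehicle and 364 and 350 bp with activin (difference −2 bp, exact permutation p = 1). Within ranked higher regions the medians went from 337 and 303 bp to 429 and 412 bp, and within ranked lower regions from 369 and 372 bp to 313 and 301 bp. Width and −log10 q come from the same reads, so these are not independent measures. FOXL2 summits stayed in place: the median distance between libraries was 25 bp for the vehicle pair, 20 bp for the activin pair and 23 to 29 bp across treatments. At ranked higher regions, summits of vehicle replicate 2 lay a median 42 bp from those of either activin library, where its peaks were weak, while the activin pair lay 18 bp apart.

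The forkhead core was found under FOXL2 promoter sites of each kind. TGTTTA, on either strand, occurs in 13.4% of 32817 RefSeq promoter windows and in 12.8% of the 30457 that touch no FOXL2 region. It was in 30.3% (27.1 to 33.7) of 729 windows over shared regions and in 26.1% (17.2 to 37.5) of 69 over activin-only regions. Over vehicle-only regions it was in 18.8% (11.4 to 29.6) of 69, an interval that includes the 12.8% of windows without a FOXL2 region. The longer TGTTTAC, which contains TGTTTA, was in 3.65% of all windows and in 11% of those over shared regions. Where a summit lay inside the window, a core within 50 bp of it was present in 30.6% (26.6 to 34.9) of 477 shared sites, 17.5% (8.75 to 31.9) of 40 activin-only and 4.08% (1.13 to 13.7) of 49 vehicle-only sites. Among ranked promoter sites it was present at 8 of 15 higher and 9 of 30 lower ones. The letters GTCAAGG, searched as a FOXL2 element, were in 3.18% of all windows and 2.74% of those over shared regions, the SMAD-binding letters CAGAC in 49.6% and 51.4%, and the AP-1 letters TGANTCA in 7.81% and 6.72%. In the 69 windows over activin-only regions, GTCAAGG was in 2.90%, CAGAC in 39.1% (28.5 to 50.9) and TGANTCA in 15.9% (9.14 to 26.3). In the 69 over vehicle-only regions they were in 2.90%, 50.7% and 4.35%. A match describes these letters in a 300-base window and not an occupied site.

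**Figure D5:**
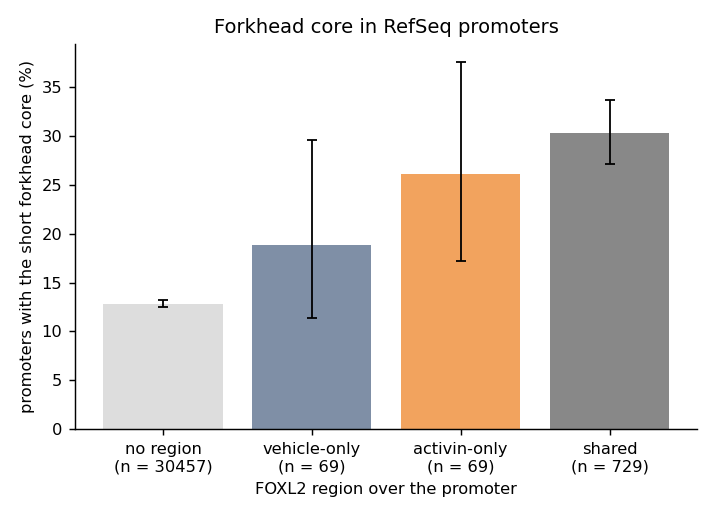
Percent of RefSeq promoter windows with TGTTTA on either strand (y axis), by the kind of FOXL2 region that overlaps the window (x axis, with the number of windows); whiskers are Wilson 95% intervals over windows. Windows over shared regions stood highest (30.3%) and those without a FOXL2 region lowest (12.8%). The intervals of the activin-only and vehicle-only windows overlap, and that of the vehicle-only windows includes 12.8%.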

How the data were processed

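Peaks of 4 FOXL2 ChIP-seq libraries (2 vehicle, 2 activin) were used, with the H3K27ac and SMAD2/3 lists as other readouts; the Protein-A control sample was not analysed here. Per the submitters' processing notes, reads were mapped with Bowtie2 to GRCm38 (mm10), peaks were called with MACS2 and annotated with HOMER; versions and parameters are not given in the sources used here. The deposited peak lists, 1 per library, give for each peak a score, a fold enrichment ratio, and −log10 p and −log10 q values, all made by the authors; the smallest deposited −log10 q was 1.30. The authors' annotation tables give class, distance to the nearest start and gene, taken as deposited. A class can name another gene than the nearest start.

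Reads were not reprocessed. Python 3.11.15 with numpy 2.4.6, pandas 2.3.3 and scipy 1.17.1 merged peaks that shared 1 bp, classed regions by presence, and ranked shared regions by −log10 q. A gap of 10 percentile points made a call. Overlap with other targets needed 1 bp. Library values were compared by exact permutation over 6 labellings. Scripts were tested on simulated peak lists. The members, the 26 gene lists and the alternatives were chosen with earlier results of these data known. Genes were named by rule: the regions of highest list percentile or largest gap, genes with most gained or lost regions, up to 4 genes per list by net calls, and Fshb, Lhb, Cga, Gnrhr and Foxl2; exceptions are stated. Depth per library is not in the files. Some named results are not reported here. Marker genes without a start in the promoter table (3 gonadotrope, 2 of other hormone lineages) were not read.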

Additional observations from a re-analysis of the deposited data

How the results depend on the processing

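Of 80 recomputations under another setting, 49 left the result within 1.5 times its value or in the same direction; of 126 more, chosen after seeing the data, 93 did. Leaving out 1 library gave 14391 to 20892 activin-only, 6877 to 11326 vehicle-only, 61442 to 65929 shared, 9678 to 13366 ranked higher and 11101 to 14858 ranked lower regions; fewer libraries make each rule easier to meet. Activin-only outnumbered vehicle-only regions in all 8 settings, by 1.34 times with lists cut to the shortest and 3.30 times with presence at a −log10 q of 5 and absence at the authors' threshold, where vehicle-only regions fell to 2265. Gaps of 0 and 20 points gave 15251 and 3591 higher and 19340 and 2339 lower regions, and ranking within the whole list, which favours longer lists, 4591 lower. The peak number difference was 0.143 to 0.199 on the log2 scale. Genes with 3 or more activin-only regions numbered 222 to 551 with a library left out and 112 with equal lists; the reverse, 36 to 128 and 52. The promoter difference ranged from −1.04 to 0.223 points with a library left out, changing sign without vehicle replicate 2, and the width difference from −9 to 5 bp, being 5 bp without vehicle replicate 1, 0 bp without vehicle replicate 2 and 5 bp without activin replicate 2. With the replicate number as a block, 8845 regions ranked higher and 9732 lower, the peak number differed by 0.17 on the log2 scale (exact permutation within pairs, p = 0.5) and the promoter share by −0.407 points; deviations of same-numbered libraries correlated at r = 0.164 over shared regions, and 2 pairs do not establish pairing. SMAD2/3 overlap was higher at ranked higher than at ranked lower regions in all 13 added settings (2.08 to 4.08 times), and prior H3K27ac higher at ranked lower regions in all 13 (1.27 to 2.63 times). With 2 libraries a group, no exact test can pass 0.05.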

Other observations

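Gained and lost FOXL2 regions were spread over the genome. On the autosomes, activin-only shares ran from 7.96% of regions on chromosome 11 to 9.56% on chromosome 16, with 9.78% on the X chromosome. Vehicle-only shares ran from 2.57% on the X chromosome to 3.77% on chromosome 7. Counted by gene, 28.7% of 12777 protein-coding genes had more activin-only and ranked higher regions than vehicle-only and ranked lower ones, and 16.4% had fewer. This balance was not recomputed with lists cut to equal length, where 7890 regions were activin-only and 5884 vehicle-only. Of 3 genes named after their counts were seen, Ccser1 had the highest balance, with 18 activin-only and 27 ranked higher against 6 vehicle-only and 18 ranked lower among its 200 regions; its presence shares are near the 8.95% and 3.22% over all regions. Pcdh17, a protocadherin gene, had 12 activin-only regions and 1 vehicle-only region. Opcml, a cell adhesion gene, had the lowest balance, with 9 ranked lower and 1 higher of 37 shared regions.

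Among 114 regions of steroid and nuclear receptor genes, 13 (11.4%, against 8.95% over all regions) were activin-only and 6 (5.26%) vehicle-only. Thrb, the thyroid hormone receptor beta gene, had 5 vehicle-only regions and 1 activin-only region, while Rarb, a retinoic acid receptor gene, had 3 activin-only and 1 vehicle-only. Of 190 regions of regulated exocytosis genes, 17 were activin-only (8.95%, the share over all regions) and 2 vehicle-only (1.05%, against 3.22%). Among their 96 shared regions, 7 ranked higher (7.29%) and 14 lower (14.6%), against 12.2% and 12.3% over all shared regions. Cadps, which primes dense-core vesicles, had 5 of 17 shared regions ranked lower and 1 higher, and Syt14 had 3 activin-only regions.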
